A study of Mus musculus with 24 samples.

Results

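Peroxisome biogenesis and peroxisomal enzymes were followed in mouse islet cells as a set of 35 genes, chosen by their known function and found by symbol among the 41549 genes of the deposited table. The set holds 13 peroxins, 5 membrane proteins and transporters, 7 enzymes of the β-oxidation spiral, 4 auxiliary β-oxidation enzymes, 2 enzymes of α-oxidation, catalase and 3 enzymes of ether lipid synthesis. The cells were dispersed wild-type mouse islet cells transfected with 50 pmol of an antisense oligonucleotide (ASO), either a control (Ctr) or one directed against 5'tRF-Glu(CTC), a fragment from the 5' end of a glutamate transfer RNA (αGlu). They were then kept for 48 h in medium with 1% serum and either 0.5 mM palmitate bound to BSA (PA), a saturated fatty acid used to model lipid overload, or 0.75% fatty-acid-free BSA alone (BSA). This gave 24 mRNA libraries, 6 each for Ctr BSA and Ctr PA and 6 each for αGlu BSA and αGlu PA, and all of them carried an ASO, so no group shows untransfected cells. The methods name C57BL/6NRj mice of both sexes aged 12 to 14 weeks as the source of islets, without tying a mouse to a library. The study calls the 6 libraries of a group independent experiments and states that the groups within a replicate shared an animal or passage, but the labels do not mark which libraries belong together. Each group has 3 libraries in batch 1 (S1 to S12) and 3 in batch 2 (S13 to S24), and the labels do not say what a batch is.

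Peroxisomes are single-membrane organelles that shorten very long-chain, branched and dicarboxylic fatty acids, split phytanic acid, start the synthesis of ether lipids and destroy the hydrogen peroxide that their oxidases release. Their proteins are made in the cytosol and brought in by peroxins, the products of the Pex genes, and shortened acyl groups leave for the mitochondrion. In rodents many of the β-oxidation genes are targets of PPARα, a nuclear receptor activated by fatty acids, and pancreatic β-cells are known for low levels of catalase.

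Library totals ran from 18214719 (Ctr BSA S1) to 35001979 counts, and 15916 genes passed the filter on low counts. The 34 members that could be tested were all but Acaa1b. The shallowest library, Ctr BSA S1, also stood apart from the others of its group, with a mean chi-square per gene of 217.6 to 384.7 against them where the highest of any other pair within a group was 203.9. Without it PA raised 16 members in Ctr cells where 14 were raised with it. β-cell markers were abundant in all libraries, with a summed level of 84080 to 152100 CPM, counts scaled so that a library's TMM-adjusted total is 1000000. Markers of other cells moved with both batch and PA. The summed level of 8 acinar markers was 2482 to 16790 CPM in batch 1 and 187.6 to 521.1 CPM in batch 2. In Ctr cells the 8 fibroblast markers summed to 134.2 to 563.1 CPM in BSA and 11.16 to 63.13 CPM in PA, with 5 of the 7 tested lowered, and in αGlu cells to 88.58 to 1079 CPM and 12.05 to 171.8 CPM, with 4 of 7 lowered. Of 10 macrophage markers 7 were lowered by PA in Ctr cells and 1 in αGlu cells, beside 14.2% and 14% of all genes. The difference between the PA responses with the 2 ASOs passed an adjusted p of 0.05 by edgeR for 0 of these 10. With the αGlu ASO, 5 of 7 Schwann and glia markers were lowered over 2-fold at an unadjusted p under 0.05 by edgeR in BSA, and 5 in PA. Their median log2 fold changes were -2.52 and -3.43, and 0 passed an adjusted p of 0.05. No marker of these lists was at 0 in every library of a group. The part of these cells in the results that follow was not tested, and in a bulk sample fewer cells of a type cannot be told apart from less RNA per cell.

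Levels between genes were compared on the deposited TPM scale, which corrects for gene length. In Ctr BSA cells the 3 highest members were Phyh, the hydroxylase that opens α-oxidation, with a median of 122.4 TPM (80.72 to 151.6), Scp2, a sterol carrier protein and thiolase, with 111.2 TPM (73.96 to 138), and Abcd3, an ATP-driven transporter of acyl groups, with 104.4 TPM (63.75 to 116.5). All 3 lay above the fourth, the peroxin gene Pex2, with 43.53 TPM (24.28 to 51.09). At the other end stood Pxmp2 with 1.321 TPM, Abcd2 with 1.314 TPM, Acox2 with 0.754 TPM and Acaa1b with 0.108 TPM. Between these extremes the order was not resolved, since the ranges of all but 2 of 34 neighbouring pairs overlapped. The gaps were those between Abcd3 and Pex2, and between Amacr (lowest library 6.198 TPM) and Acox3 (highest library 5.311 TPM). Catalase (Cat) stood at rank 13 with 25.93 TPM, and its range of 15.66 to 55.67 TPM followed the batches, as described further on.

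**Figure D1:**
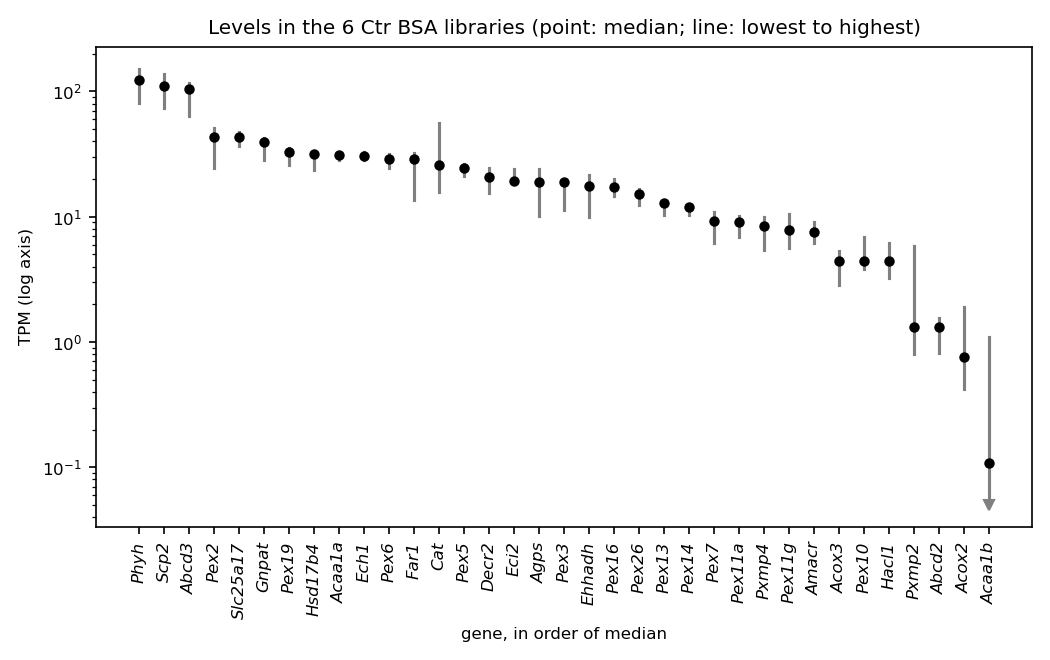
Level of the 35 members in the 6 Ctr BSA libraries, in TPM on a log axis, with genes in the order of their median; points are medians and lines run from the lowest to the highest library. Phyh, Scp2 and Abcd3 lie above 63 TPM in every library, and the arrow marks Acaa1b, whose lowest library is at 0.

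PA raised 14 of the 34 tested members in Ctr cells and lowered 1, at an adjusted p under 0.05 by the edgeR quasi-likelihood test. Over all 15916 genes, 15.3% were raised and 14.2% lowered in this comparison, against 41.2% and 2.94% of the members. In αGlu cells PA raised 18 members and lowered 1 (52.9% and 2.94%), while 14.3% of all genes were raised and 14% lowered. The 2 comparisons share no library. They may still not be independent, since the study states that the groups within a replicate shared an animal or passage. The median log2 fold change of the members was 0.18 in Ctr and 0.15 in αGlu cells, beside 0.0074 and 0.0055 for all genes tested, and 30 and 29 of the 34 lay above 0. Most changes were small: with a fold change above 2 and an unadjusted p under 0.05, the rule used in the study, 2 members were raised and 1 lowered in Ctr cells (0.854% and 5.02% of all genes), and 1 was raised and 1 lowered in αGlu cells (0.811% and 4.71% of all genes).

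The same 12 members were raised in both comparisons, namely Pex2, Pex7, Pex11a, Pex11g, Pex16, Pxmp4, Acox2, Ehhadh, Hsd17b4, Eci2, Phyh and Gnpat. This is 85.7% of the members raised in Ctr and 66.7% of those raised in αGlu cells, against 69.3% and 74.3% for all raised genes. Pex3 and Scp2 passed the threshold in Ctr cells alone, and Pex19, Pex26, Acox3, Acaa1a, Ech1 and Hacl1 in αGlu cells alone. For none of these 8 did the difference between the responses pass its own test. Another 13 members passed in neither comparison (Pex5, Pex6, Pex10, Pex13, Pex14, Abcd2, Abcd3, Slc25a17, Decr2, Amacr, Cat, Agps and Far1), and Pxmp2 was lowered in both. The 6 PA libraries lay wholly above the 6 BSA libraries for 4 members in Ctr cells (Pxmp4, Ehhadh, Hsd17b4 and Eci2) and for 9 in αGlu cells (Pex11g, Pex16, Pex26, Pxmp4, Ehhadh, Hsd17b4, Acaa1a, Ech1 and Eci2), where 2.97% and 4.17% of all genes did so. Calls of small changes were not stable. The 14 raised in Ctr became 8 in batch 1 alone and 7 in batch 2 alone, and the 18 in αGlu cells became 6 in either batch. Fits of 1 batch have 3 libraries per group, and the share of all genes called in them was not counted. A loss particular to the members is therefore not shown.

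**Figure D2:**
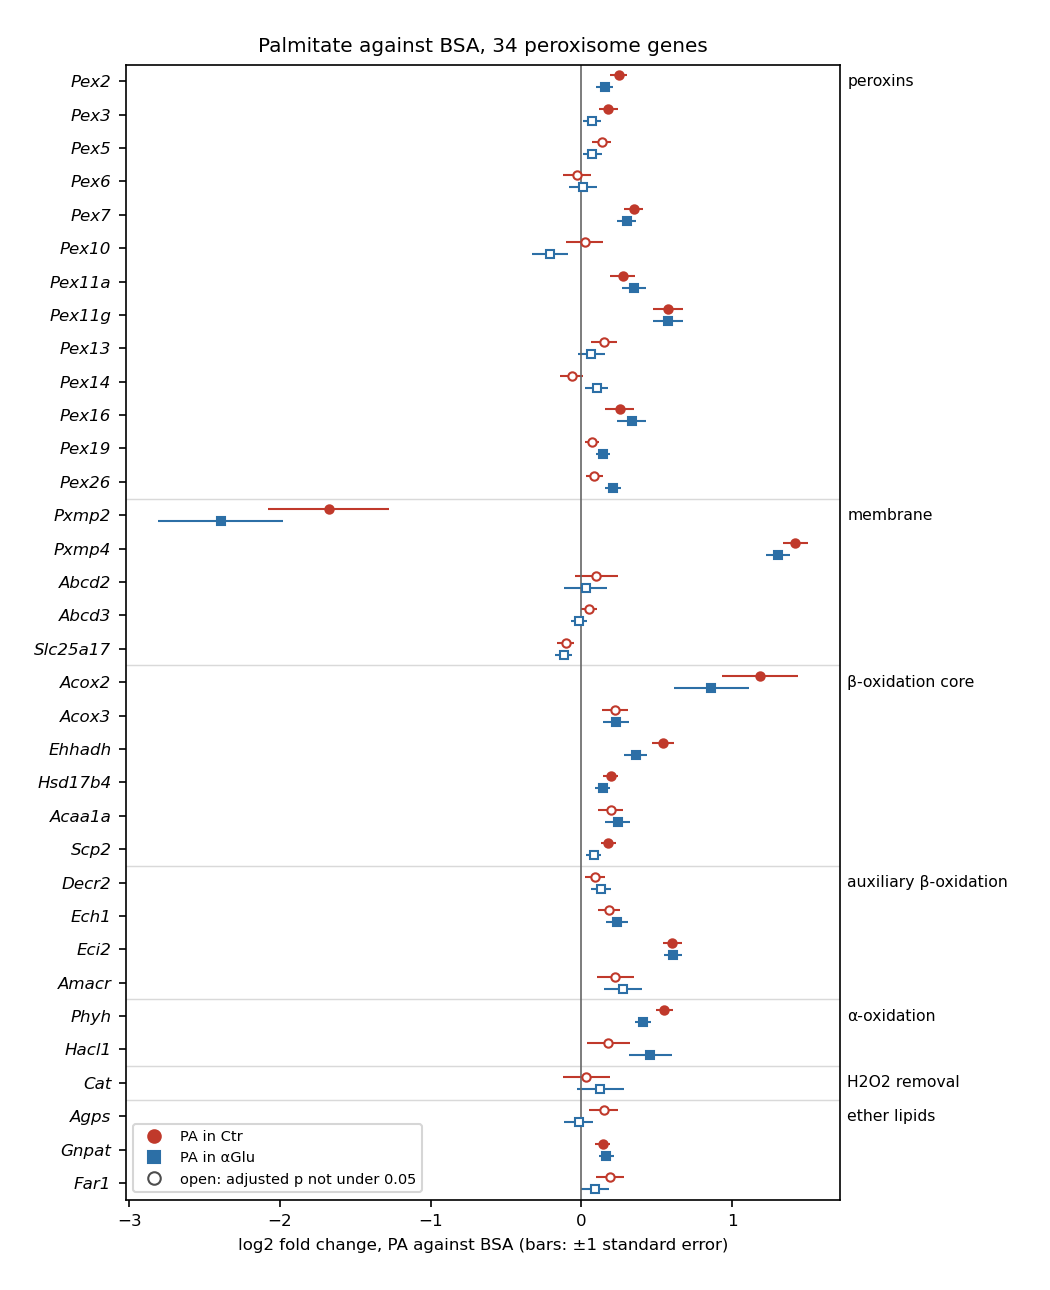
Log2 fold change of PA against BSA (bars ±1 standard error) for the 34 tested members by role, with Ctr cells as circles and αGlu cells as squares; filled symbols passed an adjusted p of 0.05. Most points lie a little to the right of 0, Pxmp4 stands apart at 1.42 and 1.30, and Pxmp2 at -1.67 and -2.39.

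The membrane proteins held both the firmest rise and the only fall. Pxmp4 encodes a small integral membrane protein of the peroxisome, on chromosome 2 (154585758 to 154603708, minus strand, GRCm38). Its level was 6.938, 9.115 and 11.53 CPM (lowest, median, highest) in Ctr BSA and 19.76, 24.39 and 29.75 CPM in Ctr PA libraries. In αGlu cells it was 8.679, 10.32 and 11.75 CPM in BSA and 20.87, 25.06 and 31.68 CPM in PA. Every PA library thus lay above every BSA library, with either ASO. The fold change was 2.67 in Ctr (log2 1.42, SE 0.08, edgeR adjusted p = 2.6e-12) and 2.46 in αGlu cells (log2 1.30, SE 0.08, adjusted p = 1.24e-11), and it was 1.39 and 1.44 on the log2 scale in the batches for Ctr and 1.15 and 1.45 for αGlu.

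Pxmp2 encodes a channel-forming peroxisomal membrane protein, and it was scarce, with 3 to 59 counts per library. In Ctr cells it measured 0.354, 0.625 and 2.44 CPM in BSA and 0.141, 0.281 and 0.365 CPM in PA, and the groups overlapped by the lowest BSA library. In αGlu cells it measured 0.298, 1.09 and 1.81 CPM in BSA and 0.121, 0.148 and 0.386 CPM in PA, again with overlap. Its log2 fold change was -1.67 (SE 0.40, edgeR adjusted p = 0.00254) in Ctr and -2.39 (SE 0.41, adjusted p = 9.2e-05) in αGlu cells. Its highest library, Ctr BSA S9, also had the highest acinar marker sum, 16790 CPM, and without it the log2 fold change in Ctr cells was -1.30 (adjusted p = 0.014). In batch 2, where acinar sums were at most 521.1 CPM, the fall was -1.04 in Ctr (adjusted p = 0.288 for batch 2 alone) and -2.42 in αGlu cells. The fibroblast sums given above fell in the same comparisons, and their part in this result was not tested. The transporters did not pass in either comparison: Abcd2 and Abcd3, which carry acyl groups into the peroxisome, and Slc25a17, a carrier of coenzyme A and nucleotides, had log2 fold changes between -0.12 and 0.10.

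Of the 6 tested genes of the β-oxidation core, PA raised 4 in Ctr and 5 in αGlu cells and lowered none. Acox2, an oxidase of branched-chain acyl groups (chromosome 14, 8225511 to 8259353, minus strand), measured 0.552, 1.20 and 2.42 CPM in Ctr BSA and 1.79, 3.04 and 4.45 CPM in Ctr PA. In αGlu cells the values were 0.639, 1.79 and 2.89 CPM and then 2.02, 2.65 and 4.90 CPM. The groups overlapped with either ASO. The BSA libraries of batch 1 (1.48 to 2.89 CPM) were all higher than those of batch 2 (0.552 to 1.39 CPM). In batch 1 the Ctr groups did not overlap, whereas αGlu PA S4, at 2.137 CPM, lay below all 3 αGlu BSA libraries of that batch. The log2 fold change was 1.18 (SE 0.25, edgeR adjusted p = 0.000939) in Ctr and 0.86 (SE 0.25, adjusted p = 0.0113) in αGlu cells, with 0.78 and 1.65 in the batches for Ctr and 0.41 and 1.35 for αGlu. In batch 1 alone it did not pass in either (adjusted p = 0.117 and 0.441).

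Ehhadh, the bifunctional hydratase and dehydrogenase of straight-chain substrates, lay higher in every PA library than in every BSA library of the same ASO. It measured 14.2, 18.2 and 23.9 CPM in Ctr BSA and 25.2, 26.4 and 28.4 CPM in Ctr PA, and 16.4, 19.1 and 23.03 CPM and then 23.5, 24.9 and 25.8 CPM in αGlu cells. The log2 fold change of Ehhadh was 0.54 in Ctr (SE 0.07, edgeR adjusted p = 4.55e-06) and 0.36 in αGlu cells (SE 0.07, adjusted p = 0.000605). Hsd17b4, the second bifunctional enzyme, rose by less, also without overlap: its Ctr BSA libraries spanned 38.2 to 39.3 CPM and its Ctr PA libraries 39.6 to 49.9 CPM (log2 0.19, adjusted p = 0.00522), and in αGlu cells the log2 fold change was 0.14 (adjusted p = 0.0384), a call lost in 7 of 24 fits that left out 1 library (adjusted p up to 0.0927). Scp2, with 110, 139 and 178 CPM in Ctr BSA and 140, 155 and 184 CPM in Ctr PA, passed in Ctr cells (log2 0.18, adjusted p = 0.00788) and not in αGlu cells (0.08, adjusted p = 0.221). The Ctr call of Scp2 was lost without the batch term, with the compared groups alone (0.17, adjusted p = 0.0517) and in batch 2 alone (0.084, adjusted p = 0.453). The oxidase Acox3 had 0.22 and 0.23 and the thiolase Acaa1a 0.19 and 0.24, and both passed in αGlu cells alone (adjusted p = 0.0461 and 0.0298). Those calls were lost in 15 and 6 of the 24 fits that left out 1 library (adjusted p up to 0.138 and 0.0756), and the Ctr value passed for Acox3 without Ctr BSA S9, Ctr PA S15, αGlu BSA S14 or αGlu PA S12 (adjusted p = 0.0193 to 0.042) and for Acaa1a without Ctr BSA S1 or Ctr PA S23 (adjusted p = 0.00522 and 0.00435).

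Acaa1b, the second thiolase gene and a near-identical copy of Acaa1a from which reads may be misassigned, was under 1 CPM in all but 3 libraries and was left out of the tests by the filter. Fitted without the filter, its log2 fold change was 0.68 (edgeR adjusted p = 0.685) in Ctr and 0.64 (adjusted p = 0.724) in αGlu cells. Its counts were 16 in Ctr BSA S1, 41 in Ctr PA S3, 26 in αGlu BSA S2 and 42 in αGlu PA S4, and 0 to 8 in each of the remaining libraries. The libraries with over 10 reads thus numbered 1 in each group, and they were S1 to S4, 1 run of consecutive library numbers in batch 1.

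Among the auxiliary enzymes, which remodel double bonds and methyl branches so that substrates can enter the spiral, Eci2 stood out. This enoyl-CoA isomerase measured 37.95, 38.45 and 49.10 CPM in Ctr BSA and 53.37, 63.54 and 68.93 CPM in Ctr PA. In αGlu cells it measured 37.92, 40.91 and 44.67 CPM in BSA and 57.23, 63.53 and 68.12 CPM in PA. No PA library overlapped a BSA library, and the fold change was 1.52 in both (log2 0.60 and 0.61, SE 0.06, edgeR adjusted p = 9.41e-08 and 9.73e-08). Ech1, a dienoyl-CoA isomerase, had log2 fold changes of 0.18 (adjusted p = 0.0566) and 0.24 (adjusted p = 0.014), with 23.4, 25.8 and 32.5 CPM in Ctr BSA and 25.2, 29.8 and 34.4 CPM in Ctr PA. In Ctr cells it passed by DESeq2 (adjusted p = 0.0499) and, by edgeR, without Ctr BSA S1 (log2 0.24, adjusted p = 0.0106), Ctr BSA S17 (0.21, adjusted p = 0.0422), Ctr PA S23 (0.22, adjusted p = 0.021) or αGlu BSA S6 (0.18, adjusted p = 0.0412). The reductase Decr2 (0.09 and 0.13) and the racemase Amacr (0.22 and 0.28) did not pass in either.

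Of the 2 α-oxidation genes PA raised 1 in Ctr and 2 in αGlu cells. Phyh measured 62.7, 86.4 and 102 CPM in Ctr BSA and 99.9, 121 and 146 CPM in Ctr PA, and 70.8, 86.7 and 113 CPM and then 99.7, 117 and 141 CPM in αGlu cells. The groups overlapped only through the batches: within batch 1 the 6 BSA libraries lay at 62.7 to 76.7 CPM and the 6 PA libraries at 99.7 to 109 CPM, and within batch 2 at 96.7 to 113 CPM and 125 to 146 CPM. Its log2 fold change was 0.55 in Ctr (SE 0.05, edgeR adjusted p = 3.75e-08) and 0.41 in αGlu cells (SE 0.05, adjusted p = 2.94e-06). Hacl1, the lyase of the following step, measured 7.11, 7.72 and 10.7 CPM in Ctr BSA and 7.11, 9.76 and 12 CPM in Ctr PA (log2 0.18, adjusted p = 0.359), and 5.05, 7.02 and 10.2 CPM and then 8.92, 10.1 and 10.8 CPM in αGlu cells (log2 0.46, adjusted p = 0.0162). The Ctr value of Hacl1 was 0.090 without Ctr PA S11 and 0.28 without Ctr BSA S9.

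PA raised 6 of 13 peroxin genes in Ctr and 7 in αGlu cells and lowered none, all by less than 2-fold. Pex11g, a gene of peroxisome division, measured 7.02, 10.2 and 12.8 CPM in Ctr BSA and 10.7, 13.98 and 20.7 CPM in Ctr PA, and 7.83, 10.2 and 11.6 CPM and then 11.7, 14.9 and 19.5 CPM in αGlu cells, where the groups did not overlap. PA changed Pex11g by a log2 0.57 (SE 0.10, edgeR adjusted p = 0.000104) in Ctr and 0.58 (SE 0.10, adjusted p = 8.56e-05) in αGlu cells. Pex11a, its relative, had 0.28 (adjusted p = 0.0131) and 0.35 (adjusted p = 0.0021).

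Of the import receptors, Pex7, which carries proteins with the second targeting signal, measured 32.9, 40.03 and 49.04 CPM in Ctr BSA and 44, 52.3 and 58.5 CPM in Ctr PA, and the groups overlapped. PA raised it by 0.35 on the log2 scale in Ctr (SE 0.06, edgeR adjusted p = 0.000128) and 0.30 in αGlu cells (SE 0.06, adjusted p = 0.000588). Pex5, the receptor for the first targeting signal, had 0.13 and 0.07 and passed in neither. Neither did the docking genes Pex13 and Pex14, with values between -0.07 and 0.15. Of the ubiquitin ligase genes that recycle the receptors, Pex2 was raised (0.25 and 0.15, adjusted p = 0.00171 and 0.0417) and Pex10 was not (0.02 and -0.21). The ATPase gene Pex6 stayed between -0.03 and 0.01, and Pex26, its membrane anchor, had 0.09 (adjusted p = 0.237) and 0.21 (adjusted p = 0.00427). Of the genes for insertion of membrane proteins, Pex16 was raised in both (0.25 and 0.33, adjusted p = 0.0466 and 0.00986), Pex3 passed in Ctr (0.18, adjusted p = 0.0278) and Pex19 in αGlu cells (0.14, adjusted p = 0.0244). Leaving out 1 library at a time ended the call of Pex16 in Ctr cells in 18 of 24 fits (adjusted p up to 0.137), that of Pex2 in αGlu cells in 9 (adjusted p up to 0.109) and that of Pex19 in αGlu cells in 3 (without αGlu BSA S14, αGlu PA S12 or αGlu PA S16, adjusted p up to 0.0661). Pex3 lost its call without Ctr BSA S1 or Ctr PA S23 (log2 0.15 in each, adjusted p = 0.066 and 0.0672).

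For ether lipids, Gnpat, the acyltransferase of the first step, was raised by 0.14 in Ctr (SE 0.05, edgeR adjusted p = 0.033) and 0.16 in αGlu cells (SE 0.05, adjusted p = 0.014) on the log2 scale, with 44.7, 49.3 and 54.8 CPM in Ctr BSA and 51.9, 55.1 and 58.4 CPM in Ctr PA. The Ctr call was lost under 6 of 9 other settings and without Ctr PA S3 (0.11, adjusted p = 0.104), Ctr PA S7 (0.14, adjusted p = 0.0552), Ctr BSA S9 (0.12, adjusted p = 0.0827) or Ctr BSA S17 (0.14, adjusted p = 0.056). Agps, the synthase of the second step, had 0.15 and -0.02, and Far1, which supplies the fatty alcohol, 0.19 and 0.09, and neither passed, although Far1 did in Ctr cells without Ctr PA S19 (0.24, adjusted p = 0.0499). Far1 measured 52.83, 80.64 and 96.57 CPM in Ctr BSA and 78.17, 85.46 and 115.9 CPM in Ctr PA, and 68.14, 80.82 and 94.53 CPM and then 82.01, 85.11 and 87.82 CPM in αGlu cells, with overlap in both. Cat, the enzyme that destroys hydrogen peroxide, measured 14.73, 29.07 and 50.96 CPM in Ctr BSA and 17.25, 27.52 and 59.63 CPM in Ctr PA, and 14.55, 24.86 and 46.98 CPM and then 15.68, 27.03 and 59.93 CPM in αGlu cells. It did not pass with PA, at a log2 fold change of 0.03 (SE 0.16, adjusted p = 0.902) in Ctr and 0.12 (SE 0.16, adjusted p = 0.599) in αGlu cells. Its 95% intervals of -0.29 to 0.35 and -0.20 to 0.45 were wide beside those of Eci2, 0.47 to 0.73 in Ctr and 0.48 to 0.73 in αGlu cells. This width depended on the fit, which had no block for runs of consecutive library numbers. With that block, described further on, the standard error of Cat fell from 0.16 to 0.077 with either ASO. That of Eci2 went from 0.062 to 0.058. Cat still did not pass with the block, at a log2 fold change of 0.022 (edgeR adjusted p = 0.853) in Ctr and 0.123 (adjusted p = 0.229) in αGlu cells.

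**Figure D3:**
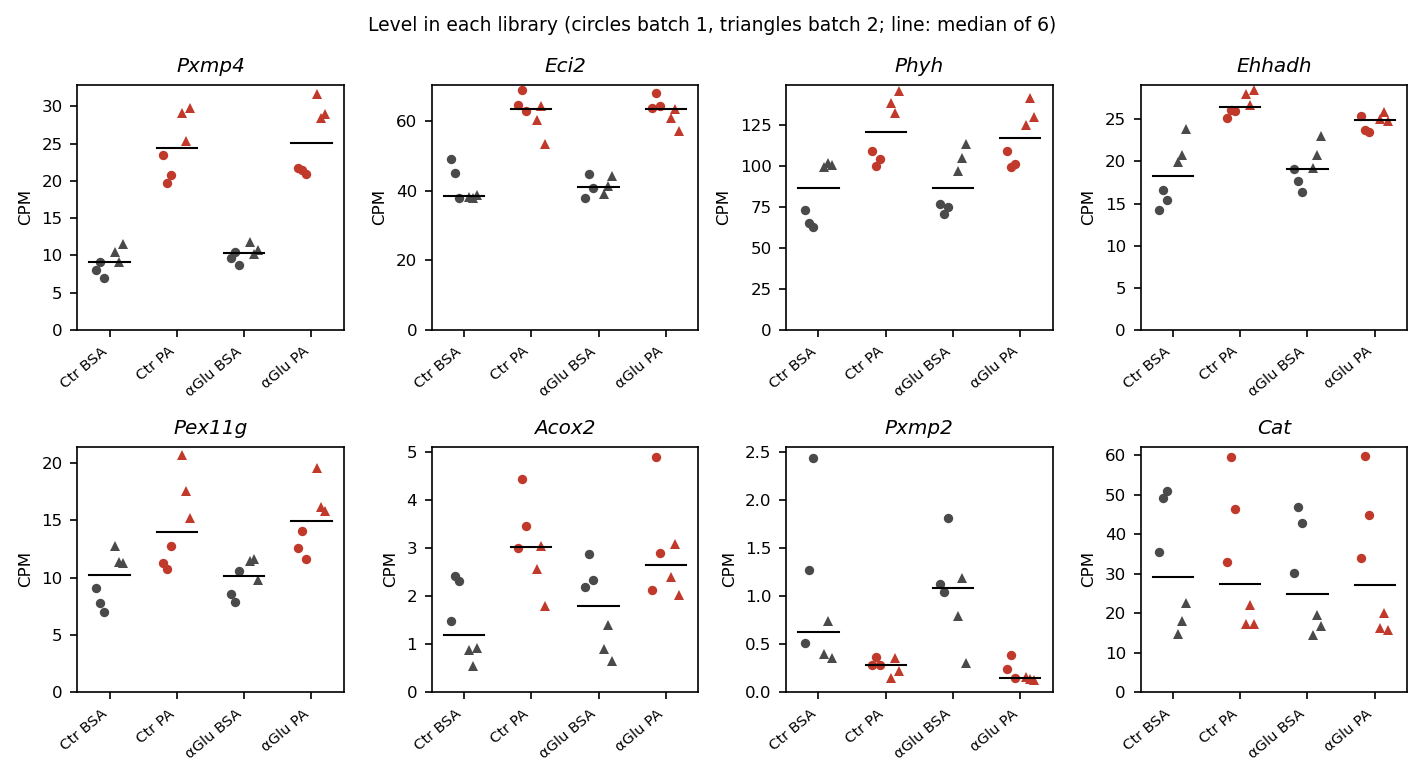
Level of 8 members in each of the 24 libraries, in CPM on linear axes from 0, by group; circles are batch 1, triangles batch 2, PA groups are red and each line is the median of 6 libraries. Pxmp4 and Eci2 separate PA from BSA fully, Ehhadh does so within each ASO, Phyh does so within each batch, and Cat is split by batch and not by treatment.

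The start regions of 3 members are shown. Pxmp4 was taken for its firm rise with PA, and Acox2 and Cat as the only members with a window that matched a searched repeat. This repeat has 2 copies of the half-site AGGTCA with 1 base between them, and PPARα with its partner RXR is known to bind it. The windows are RefSeq promoters of GRCm38.p6, from 250 bases before to 25 after the start, each on the minus strand and written 5′ to 3′ along the gene. Capitals mark a stretch that matched this repeat with at most 2 mismatches in the 12 defined bases, on either strand.
Pxmp4, chr2:154603649-154603923: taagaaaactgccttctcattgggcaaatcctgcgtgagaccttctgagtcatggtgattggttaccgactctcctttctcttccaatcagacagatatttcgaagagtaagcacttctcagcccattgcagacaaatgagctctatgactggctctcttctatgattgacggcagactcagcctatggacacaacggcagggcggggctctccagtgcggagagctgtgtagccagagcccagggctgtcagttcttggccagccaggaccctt
Acox2, chr14:8258815-8259089: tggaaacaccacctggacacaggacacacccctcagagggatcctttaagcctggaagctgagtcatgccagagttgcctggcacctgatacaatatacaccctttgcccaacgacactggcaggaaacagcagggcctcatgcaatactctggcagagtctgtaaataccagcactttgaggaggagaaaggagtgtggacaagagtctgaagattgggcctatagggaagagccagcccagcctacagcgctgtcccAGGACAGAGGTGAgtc
Cat, chr2:103485129-103485403: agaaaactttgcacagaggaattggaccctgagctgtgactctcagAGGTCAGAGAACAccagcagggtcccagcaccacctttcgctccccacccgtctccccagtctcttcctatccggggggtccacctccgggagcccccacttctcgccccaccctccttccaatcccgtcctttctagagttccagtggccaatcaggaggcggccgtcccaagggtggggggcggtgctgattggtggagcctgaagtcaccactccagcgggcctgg

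Windows of 300 bases (250 before, 50 after the start) were found for 29 of the 35 members, 34 windows in all. Of these, 2 held a match, that of Acox2 at 10 to 22 bases after the start and that of Cat from -204 to -192 relative to the start. That is 5.88% of the members' windows and 3.86% of all 32851 windows in the table. Acox2 has a second window in the table, from another start (chr14:8258970-8259269), and that one held no match. An exact match was in none of the members' windows and in 0.0396% of all. Pxmp4, with the firmest rise, had no match, and Cat, with one, did not pass with PA, and neither says whether the receptor binds there or elsewhere.

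The αGlu ASO, which blocks the tRNA fragment, was compared with the Ctr ASO under both treatments. No member and no gene passed an adjusted p of 0.05 by edgeR in BSA or in PA, and with a block for each run of 4 library numbers 0 members and 9 genes did in BSA. At an unadjusted p under 0.05 there were 0 members in BSA and 2 in PA (437 and 521 of all genes, 2.75% and 3.27%), and DESeq2 gave 0 members in each at an adjusted p under 0.05 (8 and 30 genes) and 1 and 3 at an unadjusted one. The log2 fold changes of the members ran from -0.20 to 0.27 in BSA and from -0.50 to 0.17 in PA, and 33 of 34 stayed within 0.25 of 0 in each. Small values were common among all genes tested too, with lower and upper quartiles of -0.070 and 0.055 in BSA and -0.080 and 0.066 in PA.

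The member of smallest p in BSA was Scp2, at 110, 139 and 178 CPM in Ctr BSA and 118, 151 and 190 CPM in αGlu BSA. The groups overlapped almost fully (log2 0.10, 95% interval -0.0013 to 0.20, edgeR adjusted p = 1.00). In PA it was Pex26, with 31.8, 32.7 and 35.3 CPM in Ctr PA and 33.95, 35.8 and 38.4 CPM in αGlu PA (log2 0.12, interval 0.012 to 0.23, edgeR adjusted p = 0.995), followed by Pex14 (log2 0.17, interval 0.010 to 0.32, adjusted p = 0.995). Pxmp2 had the most uncertain value in PA, -0.50 with an interval of -1.42 to 0.41, so that a fall of 2-fold and no change both lay within it.

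Whether PA acted differently with the 2 ASOs was asked by the interaction, the PA response in αGlu minus that in Ctr cells. No member and no gene passed an adjusted p of 0.05 by edgeR or by DESeq2, and at an unadjusted p under 0.05 edgeR gave 0 members against 311 genes (1.95%). The smallest p belonged to Phyh, whose response was smaller in αGlu cells by a log2 difference of -0.14 (interval -0.30 to 0.013, edgeR adjusted p = 1.00). For the members changed over 2-fold in either comparison and for Eci2, the difference was -0.72 (interval -1.90 to 0.46) for Pxmp2, -0.12 (interval -0.35 to 0.11) for Pxmp4, -0.32 (interval -1.05 to 0.41) for Acox2 and 0.0052 (interval -0.18 to 0.19) for Eci2. Hacl1, called in αGlu cells alone, had 0.28 (interval -0.13 to 0.69).

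**Figure D4:**
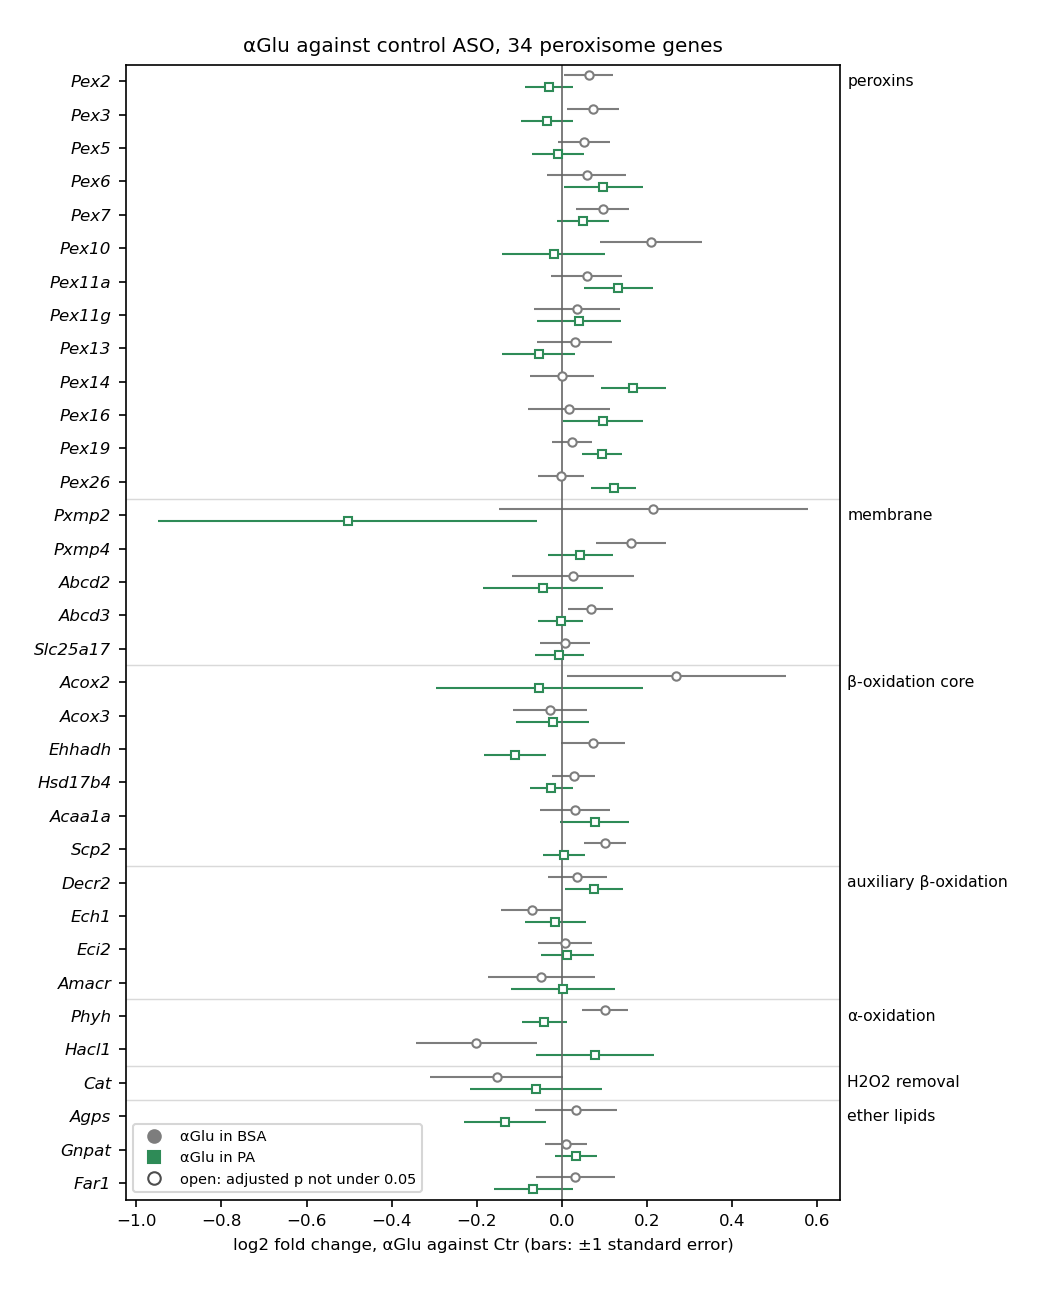
Log2 fold change of αGlu against Ctr (bars ±1 standard error) for the 34 tested members by role, with BSA as circles and PA as squares; open symbols did not reach an adjusted p of 0.05. Every symbol is open, all but 1 value per treatment lie within 0.25 of 0, and Pxmp2 and Acox2 have the widest bars.

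The batches also differed. At an adjusted p under 0.05, 16 members were higher and 5 lower in batch 2 than in batch 1, with 26% of all genes higher and 25.3% lower. Cat differed most. It lay at 30.3, 45.6 and 59.9 CPM (lowest, median, highest) in the 12 libraries of batch 1 and at 14.6, 17.3 and 22.7 CPM in the 12 of batch 2, with no overlap (log2 difference -1.31, SE 0.11, edgeR adjusted p = 1.66e-09). The acinar marker sums were likewise apart between the batches, 2482 to 16790 CPM against 187.6 to 521.1 CPM, and their part in the difference was not tested. Within batch 1, the acinar sums were 5209 to 16790 CPM in Ctr BSA and 2538 to 6816 CPM in Ctr PA, with overlap. Cat changed by 0.02 on the log2 scale between these groups. In each of the 4 groups the library highest in Cat also had the highest acinar sum (Ctr BSA S9, Ctr PA S7, αGlu BSA S6 and αGlu PA S8). All 4 libraries are in batch 1, where both levels were high. S6, S7 and S8 also belong to 1 run of consecutive library numbers, so these may not be separate events. None of these values was a test of the acinar part.

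Pxmp2 (-0.94) and Acox2 (-0.89) were also lower in batch 2, and Eci2 and Ech1 slightly so (-0.11 and -0.13). Scp2, at 110 to 144 CPM in batch 1 and 155 to 190 CPM in batch 2, was higher in batch 2 without overlap (log2 difference 0.43, SE 0.03, edgeR adjusted p = 1.36e-10). Pex11g (0.48), Phyh (0.46), Abcd2 (0.44) and Amacr (0.39) were higher by a like amount. The β-cell marker sums were 84080 to 134000 CPM in batch 1 and 110400 to 152100 CPM in batch 2, and their part was not tested. The PA response had the same sign in both batches for 31 of 34 members in Ctr and 29 of 34 in αGlu cells. The share of all genes with the same sign was not counted, so this is not shown to be particular to the members.

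**Figure D5:**
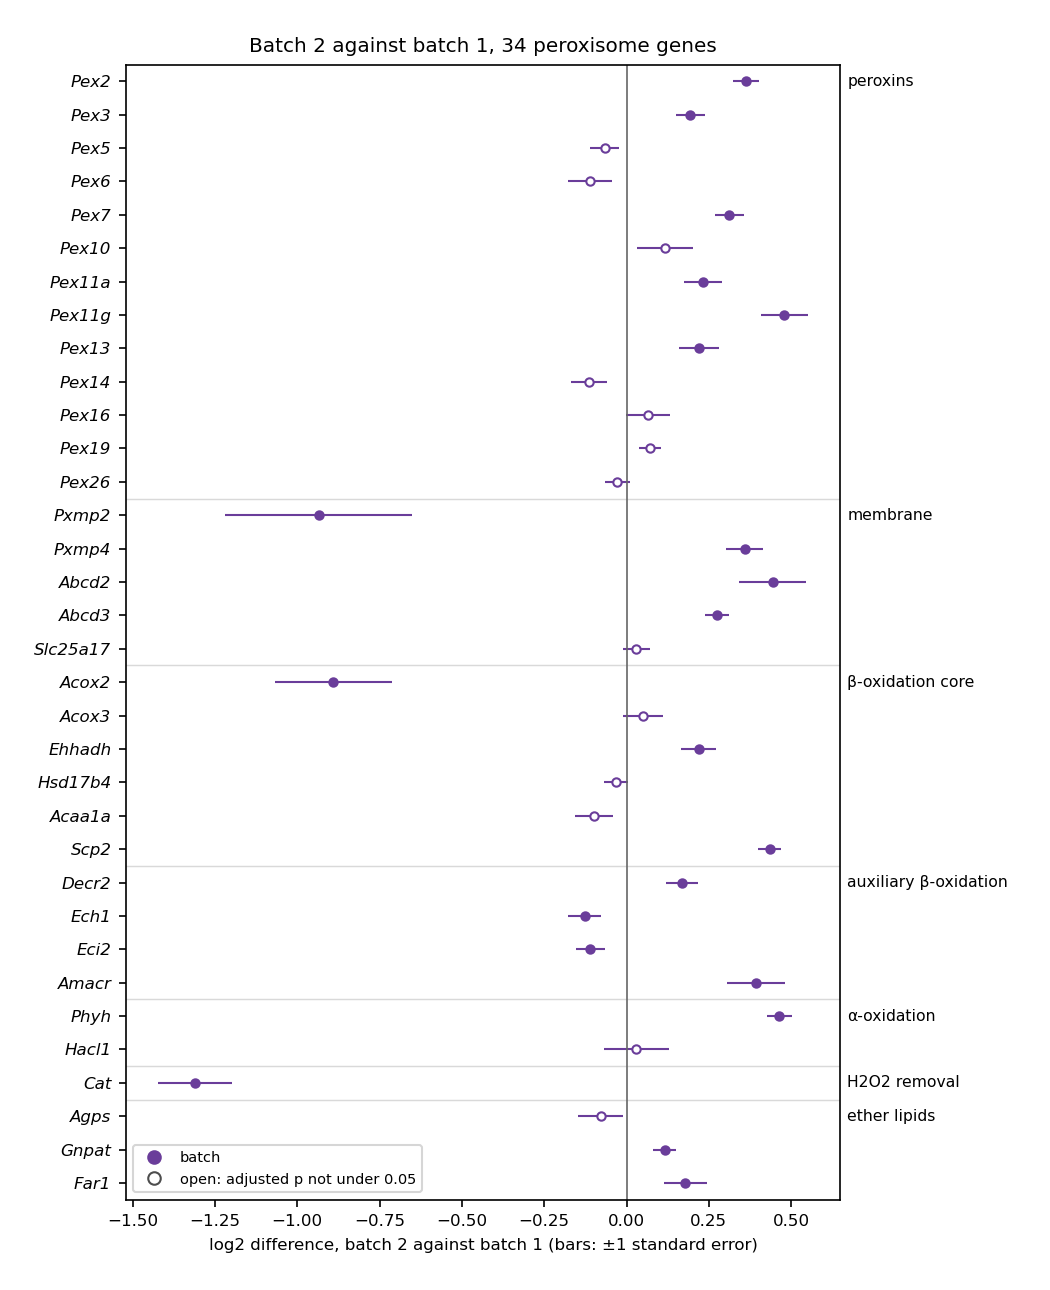
Log2 difference between batch 2 and batch 1 (bars ±1 standard error) for the 34 tested members by role; filled symbols passed an adjusted p of 0.05. Cat, Pxmp2 and Acox2 lie at -1.31, -0.94 and -0.89, and no other member is below -0.13.

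Variation between libraries of the same group and batch was small for most members. The residual standard deviation on the log2 scale ran from 0.065 in Pex19 to 0.58 in Pxmp2 with a median of 0.13, beside 0.18 for all genes tested. After Pxmp2 came Acox2 with 0.44, Cat with 0.29 and Hacl1 with 0.26, and the first 2 of these 4 were also among the scarcest members.

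A further 53 peroxisome genes outside the set were read from a list, of which 45 could be tested. PA raised 17 of them in Ctr and 17 in αGlu cells (37.8% each) and lowered none, with median log2 fold changes of 0.15 and 0.16. Of the 45, 36 lay above 0 in Ctr and 38 in αGlu cells, and the lowest values were -0.57 and -0.26. Among those of smallest p in Ctr cells, and raised with both ASOs at an adjusted p under 0.05 by edgeR, were Hsdl2, a dehydrogenase-like protein (0.62 and 0.53), Nudt7, a coenzyme A hydrolase (0.59 and 0.58), Tmem135, a membrane protein linked to peroxisomes (0.40 and 0.31), and Pecr, a reductase of enoyl-CoA (0.63 and 0.49). In a list of 20 genes of mitochondrial β-oxidation, the pathway that takes on the shortened chains, 12 were raised with either ASO and none lowered, and the medians were 0.39 and 0.36.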

How the data were processed

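Poly(A) RNA of the 24 libraries had been prepared with a stranded mRNA kit and processed by the authors with the QIAGEN RNA-seq Analysis Portal 5.1, and the submitters' processing notes name the build GRCm38. The aligner was not given in the sources used here, nor was the annotation, nor whether counting used strand, so that reads of overlapping genes may not be told apart. The deposited read counts per gene were used for all tests, and the deposited TPM values only to order levels between genes; 48 further columns of the table and 1 line without a gene, with 0 counts, were not used. Intervals and tests cover the spread between libraries, and because the labels name no cultures or animals, this spread may be partly technical. Counts of any 2 libraries of a group differed beyond sampling noise (mean chi-square per gene 6.298 to 384.7 over 60 pairs, the 5 highest being those with Ctr BSA S1).

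Counts were filtered with filterByExpr, scaled by TMM and fitted with edgeR 4.0.16 in R 4.3.3 (quasi-likelihood, robust) over all 24 libraries, with terms for the 4 groups and for batch, and two-sided p-values were adjusted by Benjamini-Hochberg over 15916 genes. CPM are counts scaled to a TMM-adjusted total of 1000000, and 95% intervals use the standard error and the t distribution of the same fit. A member was called at an adjusted p under 0.05. The biological coefficient of variation was 15.44%. Alternatives were DESeq2 1.42.0, upper-quartile scaling, no filter, at least 10 counts in 12 libraries, no batch term, the compared groups alone, each batch alone, the study's rule, each library left out and, added after the data were seen, a block for each run of 4 consecutive library numbers. The fit was tested on simulated data.

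Values by group were given for members over 2-fold with PA, the 2 of smallest p with PA in Ctr cells in each role group, the smallest p in each ASO comparison, members lowered in both PA comparisons, and members under 1 CPM in most libraries; others are given as fold changes, and Hsd17b4 was chosen after its values were seen. The members and all lists were chosen with earlier results of these data known. All 35 members were found in GENCODE M21, the source of gene positions. Protein sequences were not analysed here.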

Additional observations from a re-analysis of the deposited data

Results flagged for a closer look

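Among 64 sets of 6 libraries (the members with values by group, in the 4 groups), 6 held a library far from the others, where chance flags about 1 in 20. Acaa1b gave 4 of these, 1 in each group: Ctr BSA S1 at 1.031 CPM (others 0 to 0.165), Ctr PA S3 at 1.453 CPM (others 0.0397 to 0.1764), αGlu BSA S2 at 0.9163 CPM (others 0 to 0.1277) and αGlu PA S4 at 1.282 CPM (others 0 to 0.3053). Those 4 libraries, S1 to S4, form 1 run of consecutive library numbers, so their flags may not be separate events. Acox2 was high in αGlu PA S8, at 4.901 CPM against 2.015 to 3.08 in the others. Far1 was high in Ctr PA S23, at 115.9 CPM against 78.17 to 87.01 in the others.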

How the results depend on the processing

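The groups share no replicate numbers, but each run of 4 consecutive library numbers holds 1 library of each group, and whether a run marks a shared preparation is not stated. Deviations from the group and batch means correlated at -0.11 to 0.30 (median 0.093) over the 36 pairs within runs, 17 of them over 0.1, and at -0.34 to 0.044 over 72 pairs across runs of a batch. With a replicate block for each run, chosen after the data were seen, PA raised 16 members in Ctr (18% of all genes) and 19 in αGlu cells (17.1%) and lowered 1 in each, and no call was lost. Acox3 and Ech1 in Ctr (adjusted p = 0.0434 and 0.0495) and Amacr in αGlu cells (0.0483) were gained. No member passed in the comparisons of ASOs or the interaction with the block. The 14 members raised by PA in Ctr cells became 8 without the batch term, 8 in batch 1 alone, 7 in batch 2 alone and 2 by the study's rule, and 12 (without Ctr PA S3) to 16 (without Ctr BSA S1) with 1 library left out. The 18 raised in αGlu cells became 9, 6, 6 and 1, and 14 (without αGlu BSA S6) to 18. Smaller groups or an unmodelled batch enter the first 3 settings by construction, and the share of all genes called in those 3 was not counted. The 1 member lowered in Ctr cells became 0 in batch 2 alone, 0 with the compared groups alone, where Pxmp2 fell under the filter, and 1 to 2 (2 without Ctr PA S23) with 1 library left out. Of the batch differences, 5 lower members became 3 with upper-quartile scaling, 1 by the study's rule and 3 to 5 with 1 library left out (3 without Ctr PA S7, αGlu PA S8, Ctr BSA S13, αGlu PA S16, Ctr PA S23 or αGlu PA S24), and 16 higher members became 0 by the study's rule and 15 to 17 with 1 left out. The cause of these changes was otherwise not tested. The median log2 fold change stayed between 0.16 and 0.19 in Ctr and 0.14 and 0.19 in αGlu cells under all alternatives. Single values with PA were followed only for members with values by group or called with PA. Of 1517 such alternative values, 1368 kept direction and side of the threshold, 130 lost and 14 gained a call, and 5 uncalled values changed sign. Those 5 were Cat with PA in Ctr cells (-0.034 without Ctr BSA S1, -0.062 without Ctr PA S7, -0.023 without Ctr BSA S13 and -0.021 without Ctr PA S19, in a range of -0.062 to 0.12 with 1 library left out) and Far1 with PA in αGlu cells in batch 2 alone (-0.072). The remaining members, among them Amacr, are not in these counts. Some of them also differed in sign between the batches, such as Pex10 in Ctr cells (0.12 in batch 1 and -0.079 in batch 2). Depth limits Pxmp2 and Acaa1b, with at most 59 and 42 counts in a library.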
